A study of Mus musculus with 4 samples.

Results

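The IL-17 cytokines, their receptor subunits and the IL-23 arm that sustains type 17 lymphocytes were followed through 4 spatial transcriptomes of mouse hearts. The members are 9 of the 19465 genes listed in the count matrices, chosen by symbol: the cytokines Il17a and Il17f, the receptor subunits Il17ra, Il17rc, Il17rb and Il17rd, the adaptor Traf3ip2 (Act1), and Il23a and Il23r. IL-17A and IL-17F are secreted as dimers by type 17 helper T cells, gamma-delta T cells and some innate lymphoid cells, and signal through a receptor of IL-17RA and IL-17RC. The receptor recruits Act1, which leads to chemokine, neutrophil growth factor and matrix protease transcripts in stromal and myeloid cells. IL-23, made of the Il23a product p19 and the shared p40 subunit by dendritic cells and macrophages, acts on Il23r and maintains IL-17 production.

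All mice were wild type, of the FVB/NJ strain, had been immunized against MyHCα (cardiac myosin heavy chain alpha) with a peptide, and had received anti-PD-1 and anti-CTLA-4, which are immune checkpoint inhibitors (ICIs). Mice of the antibody group were given, besides both ICIs, an antibody that neutralizes IL-17A, and those of the ICI-alone group were not; the labels record myocarditis in the ICI-alone group. Each group holds 2 sections of fixed, paraffin-embedded heart, numbered by the batch (1 or 2) in the labels. Visium captures transcripts on a hexagonal grid of spots, each a small region that can hold several cells. Tissue covered 2604 and 2585 spots in the antibody sections and 2503 and 3052 in the ICI-alone sections. Totals of UMIs (unique molecular identifiers, counts of captured molecules) reached 47882576 and 33005923 with the antibody and 73167202 and 66255242 with ICIs alone. The median spot held 18342 and 12298 UMIs with the antibody, against 27912 and 20622.5 with ICIs alone, so the antibody sections were shallower. The labels do not tie sections to separate animals, and p-values therefore reflect section-to-section spread, which may be technical; no untreated heart was analysed here. A total of 1670 barcodes lay under tissue in all 4 sections, but a barcode names a grid position and not a cell. Cardiomyocyte markers were abundant in every section, with none of the 7 measured at 0; they reached 73052 and 60178.5 CPM (counts scaled to a common library total) in antibody sections, against 45057 and 27466 CPM with ICIs alone.

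The upstream sequences of Il17a, Il17f and Il23r are shown because these 3 members of the type 17 programme each hold AGGTCA, a half-site that many nuclear receptors bind. RefSeq promoters in GRCm38.p6 (mm10) were matched by symbol for 6 of the 9 members. The 250 bases before each start are given 5′ to 3′ on the gene's strand, with AGGTCA, or TGACCT where it lies on the other strand, in capitals.
Il17a, chr1:20730655-20730904, plus strand: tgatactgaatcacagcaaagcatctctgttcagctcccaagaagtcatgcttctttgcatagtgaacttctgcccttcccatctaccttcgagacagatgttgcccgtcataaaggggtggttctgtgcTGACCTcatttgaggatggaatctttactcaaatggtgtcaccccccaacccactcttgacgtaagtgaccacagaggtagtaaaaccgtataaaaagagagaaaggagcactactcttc
Il17f, chr1:20784271-20784520, minus strand: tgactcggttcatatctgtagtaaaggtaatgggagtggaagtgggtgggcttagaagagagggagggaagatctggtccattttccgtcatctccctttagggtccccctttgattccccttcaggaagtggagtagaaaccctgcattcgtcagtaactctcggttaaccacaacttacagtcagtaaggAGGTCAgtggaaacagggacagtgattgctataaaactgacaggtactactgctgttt
Il23r, chr6:67491856-67492105, minus strand: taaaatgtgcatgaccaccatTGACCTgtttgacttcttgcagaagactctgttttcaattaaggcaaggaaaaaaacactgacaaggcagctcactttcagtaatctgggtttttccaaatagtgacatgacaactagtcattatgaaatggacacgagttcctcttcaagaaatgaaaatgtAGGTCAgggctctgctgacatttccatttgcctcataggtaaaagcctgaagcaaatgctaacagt
Il17a held 1 match at -120 (first base, counted from the start), Il17f 1 at -58, and Il23r 2 at -229 and -66. Among 32851 promoters of this length, 4607 (14.02%) held the motif on either strand and 446 (1.36%) held 2 or more matches. The Il17f start in this table lies inside the gene's span given below. Il17rc, Il17rb and Il17rd had no match in this window; a match is a description of the letters and not a binding site. Il17a (chr1:20730905-20734496) and Il17f (chr1:20777146-20785274) are neighbours on chromosome 1, and Il23r (chr6:67422932-67491855) and Il17ra (chr6:120463181-120483731) lie on chromosome 6.

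Il17a transcripts were few. The antibody sections held 117 and 42 Il17a UMIs (2.44 and 1.27 CPM by library size), against 76 and 88 UMIs (1.04 and 1.33 CPM) in the ICI-alone sections. Antibody replicate 1 was the highest and antibody replicate 2 lay among the ICI-alone sections, so the groups overlapped. A panel of 24 hormone, eye, testis and other genes not expected in heart served as background, with the limit that each gene has its own probes: its median was 0.355 and 0.470 CPM in the antibody sections and 0.191 and 0.272 CPM in the ICI-alone sections. Il17a exceeded 23 and 22 of these 24 genes in the antibody sections, and 22 and 23 in the ICI-alone sections. Intervals and limits on counts here cover counting error only, and a count of 3 corresponded to 0.0627 and 0.0909 CPM in the antibody sections and 0.0410 and 0.0453 CPM in the ICI-alone sections.

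The other cytokine, Il17f, had 40 and 31 UMIs in the antibody sections and 27 and 60 in the ICI-alone sections. Il23r had 44 and 22 UMIs (0.919 and 0.667 CPM) in the antibody sections, against 28 and 28 UMIs (0.383 and 0.423 CPM) in the ICI-alone sections. Il23a had 31 and 14 UMIs with the antibody and 31 and 55 with ICIs alone. In CPM by library size the groups overlapped for Il17f and Il23a, while both antibody sections lay above both ICI-alone sections for Il23r. Divided by the background median of its section, Il23r overlapped too, at 2.59 and 1.42 with the antibody and 2.00 and 1.56 with ICIs alone. In the antibody and then the ICI-alone sections, Il17f exceeded 22, 21, 19 and 23 of the 24 background genes. Il23r exceeded 22, 16, 20 and 18 of them and Il23a 20, 11, 21 and 22. Il17rc, the partner chain of the IL-17A receptor, reached only 20 and 12 UMIs in antibody sections and 19 and 31 in ICI-alone sections, above 14, 9, 14 and 20 of the 24 background genes, and Il17rb, the receptor chain for IL-25, had 4, 2, 4 and 8 UMIs, above 0, 0, 0 and 1 of them. In antibody replicate 2 the Il17rc level lay below most of these genes, and Il17rb lay at or near the bottom of the panel throughout.

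Il17ra, Traf3ip2 and Il17rd were the members clearly above that background, exceeding all 24 background genes in every section. Il17ra, the chain shared by receptors of several IL-17 cytokines, was found in 23.7% and 26.0% of spots of the antibody sections and in 53.1% and 57.4% of spots of the ICI-alone sections. With each spot thinned to 5000 UMIs, which left 2499 and 2548 antibody spots and 2492 and 3048 ICI-alone spots, these shares were 7.96% and 12.0% with the antibody and 15.9% and 20.6% with ICIs alone. The groups did not overlap by either measure. Il17rd (SEF), which acts on IL-17 and fibroblast growth factor signalling, had 4.20 and 4.67 CPM by library size in antibody sections and 3.02 and 2.93 CPM in ICI-alone sections.

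**Figure D1:**
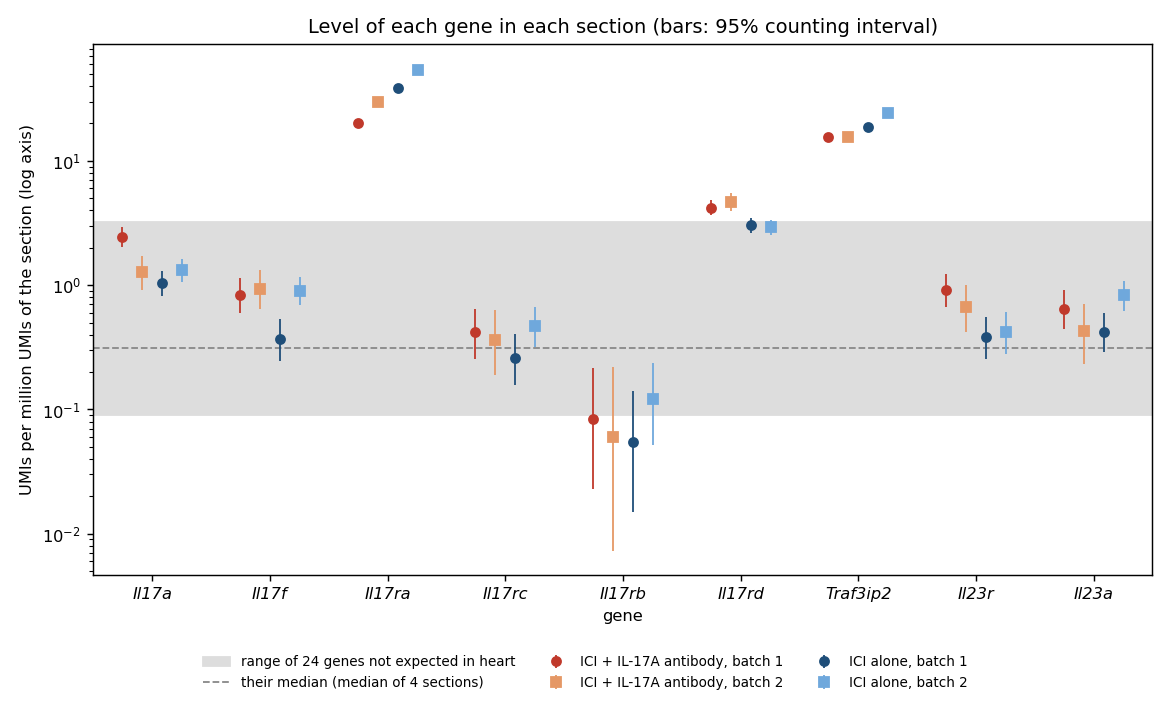
Level of each of the 9 genes in each section, in CPM on a log axis, with 95% counting intervals; the grey band spans the 24 genes not expected in heart. Il17ra, Traf3ip2 and Il17rd exceed every gene of that panel within each section, while Il17rc and Il17rb lie inside or under the band.

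The first comparison asked which members differed between antibody and ICI-alone hearts when whole sections were summed. Il17ra was lower with the antibody: 20.3 and 28.02 TMM-normalized CPM in antibody sections, against 42.0 and 52.5 CPM in ICI-alone sections (log2 fold change -0.97 ± 0.20 SE, edgeR quasi-likelihood adjusted p = 0.0308). It was the 1 call among the 8 members tested, where 11.8% of 18817 genes passed (3.03% rose, 8.81% fell); Il17rb did not pass the filter on low counts. By library size alone 840 genes rose and 1029 fell, against 571 and 1658 with TMM. Within batches the Il17ra difference was -1.05 and -0.90. Its call was lost without antibody replicate 1 (log2 fold change -0.76, adjusted p = 0.103). A filter at 10 CPM ended it as well (-0.80, adjusted p = 0.0648), and so did limma on mean log values per spot (-0.20, adjusted p = 0.272). Fewer cells of a type and less RNA per cell cannot be told apart in such sums.

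Traf3ip2, the adaptor that carries the receptor's signal, had 15.7 and 14.5 CPM in antibody sections, against 20.6 and 23.5 CPM in ICI-alone sections. Both antibody values lay under both ICI-alone values, but the difference missed the threshold (-0.55 ± 0.15, edgeR adjusted p = 0.0570). It passed with batch fitted as a replicate block (-0.54, adjusted p = 0.0466), in DESeq2 (-0.58, adjusted p = 0.0335) and without ICI-alone replicate 1 (-0.70, adjusted p = 0.0138). The cytokines did not pass: Il17a had 2.44 and 1.19 CPM with the antibody and 1.14 and 1.29 CPM with ICIs alone (0.60 ± 0.36, edgeR adjusted p = 0.265), and its within-batch differences were 1.04 and -0.11. Il17f (log2 fold change 0.41), Il23r (0.91), Il23a (-0.25), Il17rd (0.48) and Il17rc (0.05) had edgeR adjusted p of 0.0926 to 0.930. Of the 23 background genes tested, 22 were higher in the antibody sections, with a median of 0.63 and none called, beside a median of 0.09 over all genes and 0.23 over the 8 members.

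Cell type markers moved with Il17ra. The macrophage panel summed to 1038 and 1667 CPM by library size in the antibody sections and 2125 and 2717 CPM with ICIs alone, with 7 of its 11 genes fallen. The neutrophil list summed to 77.4 and 60.9 CPM, against 400 and 744 CPM with ICIs alone, and the matrix panel to 2813 and 2988 CPM, against 9996 and 23384 CPM. Their part in the Il17ra result was not tested. Per 1000 macrophage-panel UMIs there were 19.5 (95% counting interval 18.3 to 20.8) and 17.9 (16.8 to 19.1) Il17ra UMIs in antibody sections and 18.0 (17.4 to 18.7) and 19.8 (19.2 to 20.5) in ICI-alone sections. On that scale the groups overlapped. Per 1000 neutrophil-list UMIs the antibody sections were higher, at 262 and 490 against 95.8 and 72.5 with ICIs alone. Per 1000 matrix-panel UMIs they were higher as well, at 7.20 and 10.0 against 3.84 and 2.31. Per 1000 T cell panel UMIs the antibody sections were lower, at 89.2 and 124 against 205 and 296 in ICI-alone sections. The T cell panel itself summed to 227 and 241 CPM with the antibody and 187 and 182 CPM with ICIs alone, and 0 of its 16 genes passed. Il17a per 1000 T cell panel UMIs was 10.8 (8.89 to 12.9) and 5.27 (3.80 to 7.13) in the antibody sections and 5.55 (4.37 to 6.94) and 7.29 (5.84 to 8.98) in the ICI-alone sections; only antibody replicate 1 stood above the ICI-alone range.

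Genes around the pathway were counted by list. Among signals that induce type 17 cells, 3 of 10 tested fell and none rose: Tgfb2, Il6 and Tgfb3. Of 21 genes of IL-17 signalling, 4 fell: Ikbke, Nfkbiz, Cebpd and Zc3h12a. In the type 17 programme 1 of 15 rose, Irf4 (0.88), a transcription factor of T cell differentiation, and 3 fell, Il1r1 (-1.23), Il6ra (-0.58) and Il21r (-0.52). The IL-17 response list, made of genes that IL-17 induces in other cells, had 15 of 22 fallen with a median of -1.44. S100a8, S100a9 and Mmp9 are shared with the neutrophil list. None of the 5 other IL-17 family genes passed.

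Position in the tissue was asked next. In the authors' deposited table Moran's I, a score that is high when neighbouring spots hold like values, was 0.144 and 0.0859 for Il17a in the antibody sections and 0.0609 and 0.0397 in the ICI-alone sections. By the same deposited table the highest of the 24 background genes reached 0.0696 and 0.0318 with the antibody and 0.0481 and 0.0203 with ICIs alone, so Il17a lay above it in every section. The authors' deposited value for Il17ra was 0.319 and 0.192 with the antibody and 0.335 and 0.241 with ICIs alone. Il17a was found in 78 and 33 spots of the antibody sections and in 57 and 76 spots of the ICI-alone sections, with up to 7, 4, 6 and 3 UMIs in a single spot. Spots with 2 or more Il17a UMIs held 50.4% and 38.1% of its UMIs with the antibody and 40.8% and 23.9% with ICIs alone. The largest share for any background gene was 18.2% and 10.8% with the antibody and 20% and 6.37% with ICIs alone. Of the Il17a spots, 60.3% and 54.5% touched another Il17a spot in antibody sections, against 45.6% and 42.1% in ICI-alone sections. The median of this share over the 24 background genes was 4.35% and 0% with the antibody and 0% and 0% with ICIs alone. Most of those genes were found in fewer spots than Il17a, which lowers the share. The largest connected patch held 10 and 5 spots with the antibody and 4 and 4 with ICIs alone.

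**Figure D2:**
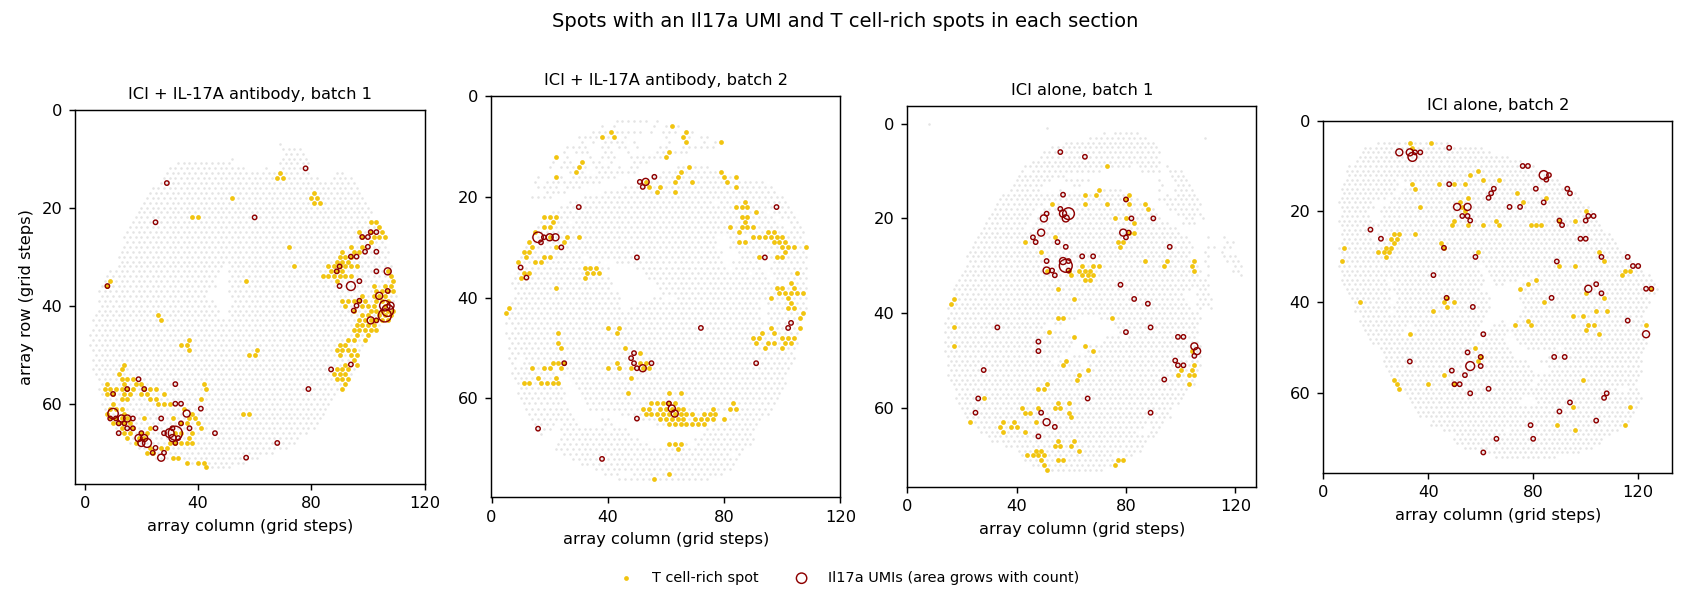
Grid map of each section, with spots under tissue in grey, T cell-rich spots in yellow and spots with Il17a UMIs as red circles whose area grows with the count; axes are array columns and rows in grid steps. T cell-rich spots hold 58 of 117 and 12 of 42 Il17a UMIs in the antibody sections, against 5 of 76 and 6 of 88 in the ICI-alone sections.

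T cell-rich spots were those with at least 4 UMIs of a 16-gene T cell panel after thinning to 5000 UMIs. There were 237 and 218 such spots in the antibody sections and 112 and 97 in the ICI-alone sections. They held 58 of 117 Il17a UMIs in antibody replicate 1 (49.6%, Wilson 95% interval 40.7 to 58.5) and 12 of 42 in antibody replicate 2 (28.6%, 17.2 to 43.6). In the ICI-alone sections they held 5 of 76 (6.58%, 2.84 to 14.5) and 6 of 88 (6.82%, 3.16 to 14.1). The same spots held 11.01% and 10.7% of all UMIs of the antibody sections and 5.31% and 3.51% of all UMIs of the ICI-alone sections. The share of Il17a UMIs exceeded the share of all UMIs in every section, with an interval that excluded it in the antibody sections alone.

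Across the 4 sections, with the section as a block, 5 of 7 members tested rose in T cell-rich spots and 1 fell, where 34.6% of 16399 genes passed (16.5% rose, 18.0% fell). Il17a stood at 9.82 CPM in T cell-rich and 1.56 CPM in other spots of antibody replicate 1, and at 3.03 and 1.03 CPM in replicate 2. In ICI-alone replicate 1 it stood at 1.31 CPM in T cell-rich and 1.18 CPM in other spots, and in replicate 2 at 2.42 and 1.32 CPM (log2 fold change 1.61 ± 0.40, edgeR adjusted p = 0.0158). The difference was largest in antibody replicate 1 and smallest in ICI-alone replicate 1. Il17f (1.39 ± 0.42, adjusted p = 0.0344), Il23r (1.24 ± 0.38, adjusted p = 0.0348), Il17ra (0.89 ± 0.19, adjusted p = 0.00778) and Traf3ip2 (0.35 ± 0.12, adjusted p = 0.0468) rose as well in edgeR. Il17rd fell (-0.75 ± 0.22, edgeR adjusted p = 0.0282), with 2.88 and 3.03 CPM in T cell-rich spots and 4.82 and 4.89 CPM in other spots of the antibody sections, and 1.83 and 2.02 CPM in T cell-rich spots and 3.54 and 3.05 CPM in other spots of the ICI-alone sections. Il23a (0.74 ± 0.49, edgeR adjusted p = 0.270) was higher in 2 of 4 sections. Per 1000 T cell panel UMIs, antibody sections held 11.4 and 3.59 Il17a UMIs in T cell-rich spots, against 10.3 and 6.52 in others. ICI-alone sections held 1.94 and 4.11 in T cell-rich spots, against 6.38 and 7.72 in others. On that scale only antibody replicate 1 was higher in T cell-rich spots, but the same panel defined those spots.

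Background genes moved with this class too: 14 were tested, with a median of 0.58 and 1 called (Prm1, 1.63), beside a median of 0.11 over all genes, and their part in the result was not tested. Scaled by library size alone, the median over all genes was 0.33 and 4726 genes rose while 1964 fell, against 2709 and 2959 with TMM. These calls depended on single sections. Without antibody replicate 1, and likewise without antibody replicate 2, 1 member passed, without ICI-alone replicate 1, 3 passed, and without ICI-alone replicate 2, 4 passed. For Il17a the adjusted p was 0.113 without antibody replicate 1 and 0.0729 without antibody replicate 2. Il17ra was lost without antibody replicate 2 (adjusted p = 0.0558), Il17f without antibody replicate 1 (0.265) and ICI-alone replicate 2 (0.0965), Il17rd and Traf3ip2 without each of 3 sections and Il23r without any one of the 4. A threshold of 5% of spots left 3 members called and thinning to 2000 UMIs left 2. Over the 8 changes of class or scaling, the Traf3ip2 call was lost in 7 and that of Il17rd in 6. Il17f and Il23r lost theirs in 2 each, while Il17a and Il17ra kept theirs in all 8. Of the 14 background genes tested, 10 had a larger log2 fold change than Traf3ip2.

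**Figure D3:**
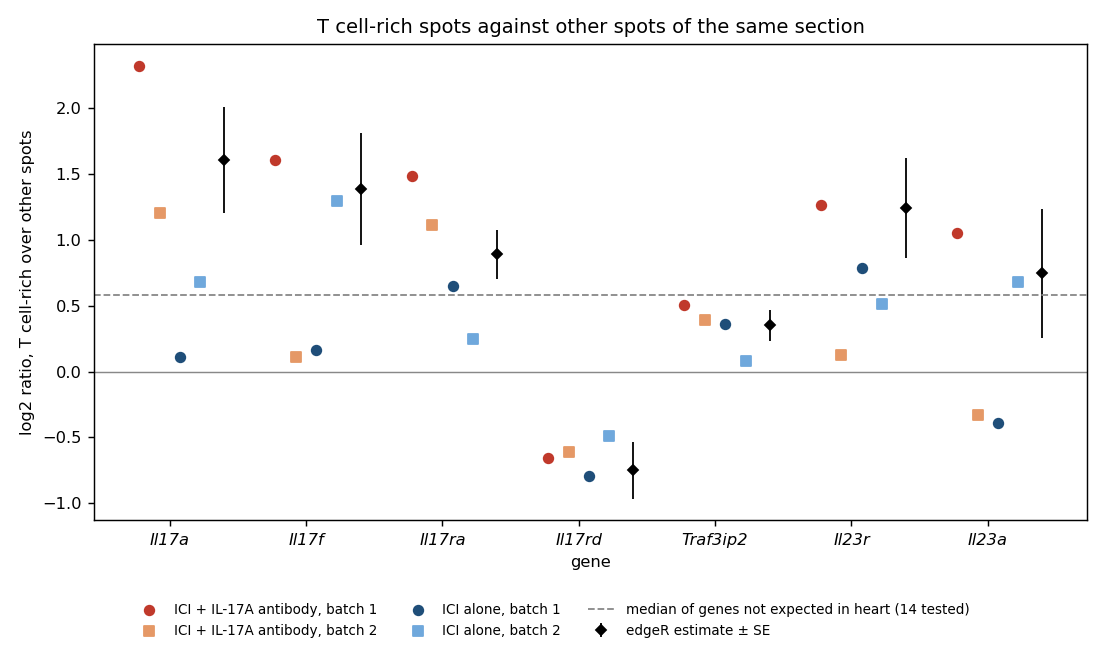
Log2 ratio of T cell-rich over other spots for each gene, by section (coloured points, 0.5 CPM added) and as the edgeR estimate with its SE (black). Il17ra and Traf3ip2 are above 0 and Il17rd below 0 in all 4 sections; the dashed line is the median of the 14 background genes tested.

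Genes around the pathway were counted in T cell-rich spots by the same lists. Ccr6, a chemokine receptor of type 17 cells, rose (1.69), and the type 17 programme had 7 of 15 genes risen and 1 fallen. Inducing signals had 7 of 10 risen, among them Il12b (2.09), the shared p40 subunit of IL-23 and IL-12, and Il1b (1.37). IL-17 signalling had 12 of 21 risen, with Tnfaip3 (1.23) and Ikbke (1.35), and the response list 13 risen and 1 fallen of 22. Il17re (1.21), the receptor for IL-17C, rose and Il17d (-1.06), an IL-17 family cytokine, fell. Of the dendritic cell list 6 of 7 rose, of the neutrophil list 5 of 10, and of the macrophage panel 5 of 11 rose and 2 fell. The NK and innate lymphoid list had 5 of 6 risen and the gamma-delta T cell list 3 of 7 risen and 1 fallen. The part of these cell markers was not tested.

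Macrophage-rich spots (at least 18 UMIs of an 11-gene panel; 23 and 130 spots in antibody sections, 258 and 690 in ICI-alone sections) gave a different pattern. Among 8 members tested, 1 rose, where 24.5% of 17243 genes passed (11.4% rose). Il17ra was higher there (0.39 ± 0.09, edgeR adjusted p = 0.00248), with 36.0 and 43.0 CPM in macrophage-rich spots and 21.1 and 28.1 CPM in other spots of the antibody sections. In the ICI-alone sections it had 56.7 and 60.8 CPM in macrophage-rich and 41.5 and 53.4 CPM in other spots. Il17a did not pass (-0.29 ± 0.35, edgeR adjusted p = 0.645), and antibody replicate 1 had no Il17a UMI in its 23 macrophage-rich spots (95% counting upper bound 7.94 CPM). Traf3ip2 had 0.32 (edgeR adjusted p = 0.0532), and 0.55 without ICI-alone replicate 2 (adjusted p = 0.00122). T cell panel genes moved with this class, 14 of 16 rising, and background genes had a median of 0.48; their part was not tested. By library size alone 3474 genes rose and 1501 fell, against 1972 and 2251 with TMM. In matrix-rich spots (10 and 0 spots with the antibody, 150 and 1005 with ICIs alone), 1 of 9 members tested rose, where 18.3% of 18330 genes passed (6.87% rose). That was Traf3ip2 (0.41 ± 0.12, edgeR adjusted p = 0.0405), with antibody replicate 2 left out of the fit because it held no matrix-rich spot. The call ended at a threshold of 5% of spots, where 0 members passed, and without ICI-alone replicate 1 (adjusted p = 0.990) or 2 (0.484). By library size alone 2614 genes rose and 1113 fell, against 1259 and 2101 with TMM.

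Whether the T cell-rich difference itself depended on the antibody was tested as an interaction, in which 1.14% of 16399 genes (1.09% rose, 0.0488% fell) and 0 of 7 members passed (2915 genes had an unadjusted p under 0.05). Il17ra came closest (0.86 ± 0.20, edgeR adjusted p = 0.0662) and Il17a had 1.78 ± 0.58 (adjusted p = 0.150). Il17ra passed when scaled by library size alone (0.97, adjusted p = 0.0265) and without antibody replicate 1 (0.66, adjusted p = 0.0112), antibody replicate 2 (1.06, adjusted p = 9.9e-08) or ICI-alone replicate 1 (1.08). Il17a passed without antibody replicate 2 (2.15, adjusted p = 0.00186). Within T cell-rich spots alone, 0.0751% of 11981 genes differed between the groups by edgeR and none of the 5 members tested did (2001 genes had an unadjusted p under 0.05). There Il17ra had 55.8 and 62.9 CPM with the antibody, against 68.3 and 71.2 CPM with ICIs alone (-0.23 ± 0.15, edgeR adjusted p = 0.481). Il17a had 10.8 and 3.34 CPM with the antibody, against 1.34 and 2.64 CPM with ICIs alone (1.98 ± 0.69, edgeR adjusted p = 0.230).

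Spots with an Il17a UMI were then set against all other spots of the same section. Il17a spots were deeper, with median UMIs of 22678.5 and 16622 against 18252.5 and 12273 for other spots of the antibody sections, and 37744 and 27342.5 against 27796 and 20501 in the ICI-alone sections. T cell receptor genes were found with it: at least 1 UMI of Cd3d, Cd3e or Cd3g lay in 76.9% and 51.5% of Il17a spots with the antibody and in 56.1% and 57.9% with ICIs alone. The shares in other spots were 29.4% and 26.6% with the antibody and 42.8% and 37.0% with ICIs alone. Over spots that hold Hcrt, Avp, Prl or Ins2 of the background panel, the share with Cd3 was 34.6% to 50% and 35.7% to 52.6% with the antibody and 36% to 54.3% and 41.9% to 58.6% with ICIs alone. Il17a spots lay above all 4 of these genes in antibody replicate 1 and ICI-alone replicate 1, and inside their range in the other sections. The other background genes, Prm1 among them, were not compared in this way. With every spot thinned to 5000 UMIs, Cd3 was found in 8 of 22 and 3 of 12 Il17a spots with the antibody (36.4% and 25%) and in 2 of 10 and 1 of 17 with ICIs alone (20% and 5.88%). Other thinned spots held it in 14.7% and 13.8% of cases with the antibody and 13.7% and 12.0% with ICIs alone, so ICI-alone replicate 2 turned round, on a single spot with both. Il17a and Il17f were found in the same spot 11 and 1 times in antibody sections and 3 and 6 times in ICI-alone sections. The product of the separate shares gives 1.14 and 0.383 spots with the antibody and 0.615 and 1.32 with ICIs alone. The spot with most Il17a, 7 UMIs in antibody replicate 1, held 15 T cell panel UMIs, and another with 6 Il17a UMIs held 151.

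In edgeR, 3 of the 6 other members tested rose in Il17a spots, where 26.8% of 16229 genes passed (11.2% rose, 15.5% fell). Il17f had 5.41 and 1.66 CPM in Il17a spots and 0.679 and 0.912 CPM in other spots of the antibody sections, and 1.52 and 4.798 CPM in Il17a spots and 0.384 and 0.799 CPM in other spots of the ICI-alone sections (2.44 ± 0.44, edgeR adjusted p = 0.0011). Il17ra (0.86 ± 0.20, adjusted p = 0.00488) and Il23a (1.94 ± 0.62, adjusted p = 0.0332) were higher too. All 3 were higher in each of the 4 sections, but Il23a was lost without ICI-alone replicate 2 (adjusted p = 0.109) or antibody replicate 2 (0.129). Il23r (1.27), Traf3ip2 (0.23) and Il17rd (-0.89) did not pass, with edgeR adjusted p of 0.144 to 0.358. Cd3e, a T cell receptor chain, rose (0.90 ± 0.24, edgeR adjusted p = 0.0124).

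The 10 genes with the largest rises were taken among those with a mean of at least 10 CPM in Il17a spots and higher in all 4 sections. Il13, a type 2 cytokine, had 19.7 and 8.31 CPM in Il17a spots and 2.37 and 0.881 CPM in other spots of the antibody sections. In ICI-alone sections it had 6.58 and 7.68 CPM in Il17a spots and 0.800 and 1.199 CPM in other spots (2.97 ± 0.30, edgeR adjusted p = 8.18e-05). Csf2 (2.64), the granulocyte-macrophage growth factor that type 17 cells can secrete, and Ccl17 (2.60), a ligand of CCR4, followed. Il1a (2.45), an alarmin that promotes type 17 responses, had 203 and 145 CPM in Il17a spots and 28.8 and 18.1 CPM in other spots with the antibody, and 123 and 132 CPM in Il17a spots and 22.0 and 43.6 CPM in other spots with ICIs alone. Ccl24 (2.47), an eosinophil chemokine, Hcar2 (2.43), a receptor for ketone bodies and niacin, and Plet1 (2.40) completed the first 7. Mmp12 (2.36), the macrophage elastase, Arg1 (2.36), an arginine-degrading enzyme of macrophages, and Cxcl3 (2.32), a neutrophil chemokine, were next. The highest edgeR adjusted p among these 10 was 0.000963, for Mmp12. Il22, a partner cytokine of type 17 cells, rose by 3.92 but had 0 UMIs in the Il17a spots of antibody replicate 2. It was found in only 8 and 3 spots of the antibody sections and 4 and 3 of the ICI-alone sections. Of these, 4 and 0 with the antibody and 2 and 1 with ICIs alone were Il17a spots.

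Since Il17a spots were the deeper ones, the same comparison was run for spots that hold each of 14 background genes, an addition made after seeing the data. The number of genes called was 28 to 4662, with a median of 730, a highest value for Prm1 and 1913 for the next, against 4345 for Il17a. Cd3e rose in 4 of the 14, Prm1 (0.88) among them, against 0.90 in Il17a spots. Genes named for Il17a spots passed there too, in either direction: Arg1 in 14 of 14, Mmp12 and Ccl17 in 11, Ccl24 in 10 and Il1a in 9. Cxcl3 passed in 6, Csf2 in 4, Hcar2 in 2, Plet1 in 1 and Il13 in 0. Il13 was low in spots without Il17a, and its log2 fold change ranged from -8.48 to 1.54 over these fits. So few counts leave little power, and 0 calls do not set it apart. The largest log2 fold change of the named genes in these fits was 1.87 (Plet1), but they had been chosen for their rise in Il17a spots. In the Il17a comparison itself the background genes had a median of 0.92 over 16 tested, with 1 called. With detection called on spots thinned to 5000 UMIs, 2889 genes passed. By library size alone 2597 genes rose and 1817 fell, against 1824 and 2521 with TMM, and the median over all genes was 0.22 instead of 0.06.

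By list, the type 17 programme had 8 of 15 genes risen and 1 fallen in Il17a spots, inducing signals 6 of 9 risen, IL-17 signalling 10 of 21 risen and the response list 12 risen and 1 fallen of 22. Those with the smallest p were Csf2, Il21r, Irf4 (1.46) and Il22 in the programme and Il1a, Il1b (2.16), Il6 (1.35) and Tgfb1 (1.22) among inducing signals. Tnfaip3 (1.32), Ikbke (1.46), Cebpb and Zc3h12a led the signalling list. The T cell panel had 13 of 16 risen, the neutrophil list 6 of 10, and the macrophage panel 4 of 11 risen and 2 fallen. Of the gamma-delta T cell list 0 of 7 rose and 1 fell, Zbtb16, and of the NK and innate lymphoid list 4 of 6 rose. The gamma-delta T cell list had a median log2 fold change of 0.74, beside 0.06 over all genes and 0.92 over the background genes. What part these cell markers had in the result was not tested.

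Spots without Il17a that touch an Il17a spot (ring 1) were compared with those farther away. Here 2 of 7 members tested rose, where 23.2% of 17435 genes passed (10.1% rose, 13.1% fell). Il17f had 2.28 and 3.84 CPM in ring 1 and 0.410 and 0.727 CPM farther away in antibody sections, and 1.04 and 2.31 CPM in ring 1 and 0.261 and 0.542 CPM farther away in ICI-alone sections (2.22 ± 0.26, edgeR adjusted p = 0.0116). Ring 1 was higher in every section. Il17ra rose as well (0.94 ± 0.21, edgeR adjusted p = 0.0184), and Il23a did not pass (1.48 ± 0.46, adjusted p = 0.0544). Background genes had a median of 0.41 with 1 of 14 called. The 10 named genes were Il1a (2.63), Serpinb2 (2.55), a plasminogen activator inhibitor, Mmp12 (2.53), Ccl24 (2.50), Cxcl3 (2.37), AA467197 (2.34), Ccl17 (2.33), Slc7a11 (2.32), a cystine transporter, Dcstamp (2.30), a cell fusion gene, and Nos2 (2.30), the inducible nitric oxide synthase. Without antibody replicate 2 no gene passed (edgeR; 5251 had an unadjusted p under 0.05), and the adjusted p of Il1a was then 0.0831. By library size alone 2242 genes rose and 1638 fell, against 1766 and 2283 with TMM.

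By distance, Il17ra was lower with each step in antibody replicate 1: it had 62.6 CPM by library size in Il17a spots, 60.0 in ring 1, 33.1 in ring 2, 23.3 in ring 3, 9.53 in ring 4 and 7.40 beyond. Antibody replicate 2 had 85.6, 60.4, 54.2, 40.5, 28.2 and 21.1 CPM over the same rings. ICI-alone replicate 1 had 53.6, 53.4, 42.0, 42.3, 36.0 and 31.5 CPM and ICI-alone replicate 2 had 71.9, 76.5, 66.0, 57.2, 47.7 and 37.4 CPM. In Il17a spots the groups therefore overlapped, while beyond ring 4 both antibody sections were below both ICI-alone sections. The T cell panel (754 and 422 CPM in Il17a spots, 86.2 and 192 CPM beyond ring 4, with the antibody; 281 and 274 CPM in Il17a spots, 164 and 151 CPM beyond, with ICIs alone) was lower farther out too. The background genes summed to 28.5 and 38.2 CPM in Il17a spots and 9.75 and 15.4 CPM beyond ring 4 with the antibody, and to 11.8 and 12.0 CPM in Il17a spots and 7.79 and 9.53 CPM beyond with ICIs alone. The part of either in the Il17ra pattern was not tested.

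**Figure D4:**
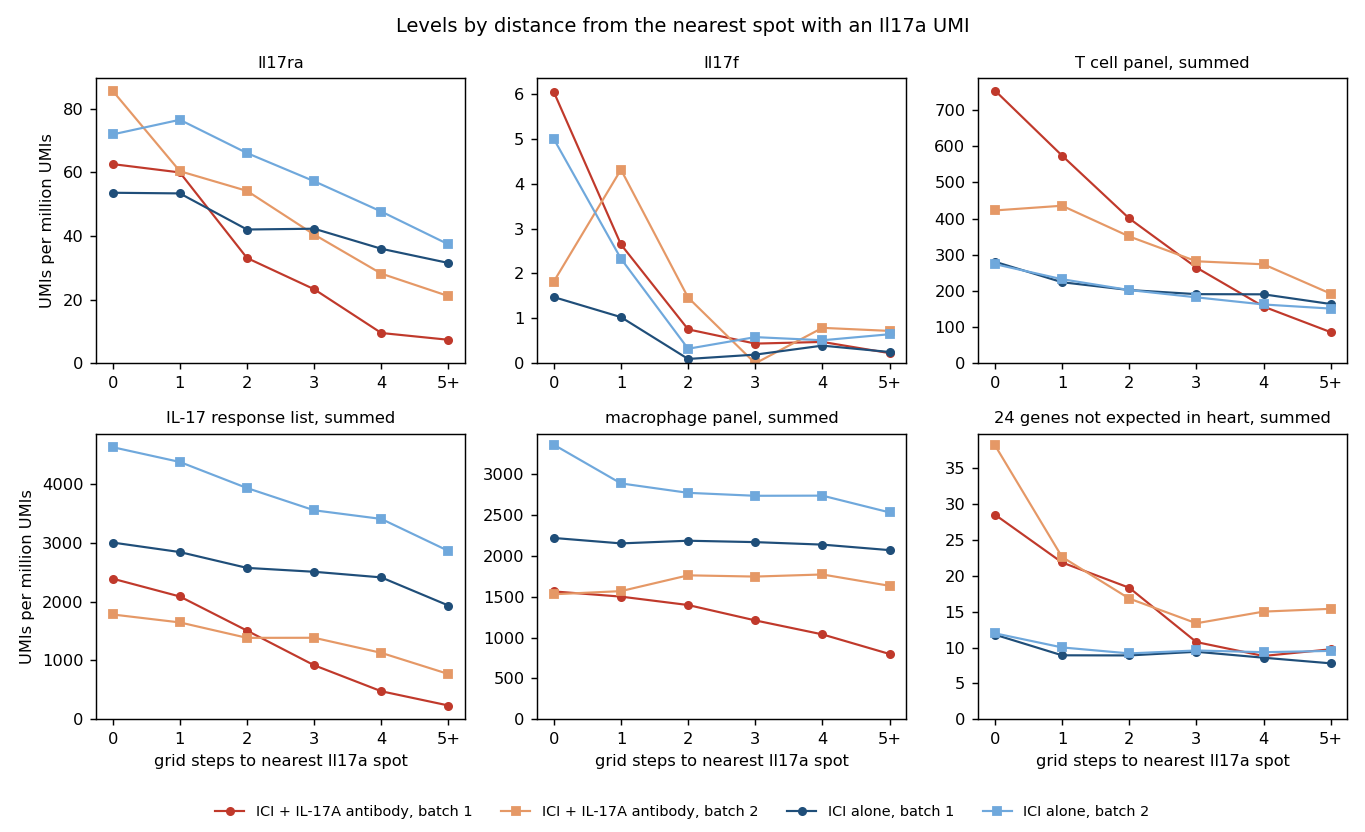
Levels in CPM by grid steps from the nearest Il17a spot (0 is the Il17a spots themselves, 5+ is 5 or more steps), 1 line per section. Il17ra, the T cell panel and the IL-17 response list are lower at 5 or more steps than in Il17a spots in all 4 sections, and the 24 background genes are too.

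The difference between Il17a spots and other spots was itself compared between the groups. Of 16229 genes 3.62% passed (3.03% more positive with the antibody, 0.592% more negative), and 1 of 6 members did. Here Il17ra had 56.0 and 78.1 CPM in Il17a spots and 20.1 and 28.5 CPM in other spots of the antibody sections, against 55.2 and 69.1 CPM in Il17a spots and 43.2 and 54.8 CPM in other spots of the ICI-alone sections. The log2 ratio was 1.46 and 1.44 with the antibody and 0.35 and 0.33 with ICIs alone (interaction 1.13 ± 0.19, edgeR adjusted p = 0.00564). Levels in Il17a spots overlapped between the groups and those in other spots did not. The background genes had a median of 0.68 over 16 tested, with 0 called, and the median over all genes was 0.13. The call was lost without ICI-alone replicate 1 (1.15, adjusted p = 0.104) or 2 (1.08, adjusted p = 0.260). The number of genes called was 113 without ICI-alone replicate 1, 32 without ICI-alone replicate 2, 271 without antibody replicate 1 and 2940 without antibody replicate 2.

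Among the 10 genes named for this difference were Igkc (2.62), the immunoglobulin kappa constant region, S100a8 (2.34) and S100a9 (2.14), the calprotectin chains of neutrophils. S100a8 had 57.5 and 49.9 CPM in Il17a spots and 8.41 and 8.14 CPM in other spots of the antibody sections, and 112 and 160 CPM in Il17a spots and 81.3 and 130 CPM in other spots of the ICI-alone sections. The rest were Sprr1a (2.27), Cilp (2.26), a cartilage matrix protein, Mcoln2 (2.22), Thbs4 (2.01), a thrombospondin, Cxcr2 (2.01), the neutrophil receptor for CXCL chemokines, Mmp12 (2.00) and Il1f9 (1.97), an IL-1 family cytokine. Without ICI-alone replicate 2 the calls of Sprr1a, Cilp, Mcoln2, Thbs4 and Mmp12 were lost, and that of Mcoln2 also without antibody replicate 1 (0.99). Response genes had 8 of 22 more positive, among them Mmp9 (1.64) and Ptx3 (1.51), inducing signals 4 of 9, IL-17 signalling 2 of 21 and the type 17 programme 0 of 15. The neutrophil list had 8 of 10, the T cell panel 3 of 16 and the macrophage panel 0 of 11, and their part was not tested.

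Spots that hold other members were compared with the remaining spots in the same way. In Il17f spots, where 19.8% of 16592 genes passed (7.63% rose), Il17a came first among the named genes (2.83 ± 0.39, edgeR adjusted p = 4.09e-11), at a mean over sections of 10.48 CPM, against 1.46 CPM in other spots. Ifng (1.97), the interferon-gamma gene, Il1a (1.84) and Ccl3 (1.83), a macrophage chemokine, came next. Il23a spots (23.7% of 16368 genes passed, 8.99% rose) were led by Il1a (2.12), followed by myeloid genes that included Cxcl3 (1.84), Dcstamp (1.84), Osm (1.83) and Il1b (1.83). Il23r spots (9.82% of 16015 genes, 3.44% rose, 6.38% fell) were led by Ccr7 (1.57), a lymph node homing receptor, H2-M2 (1.55), Ccl22 (1.26), a dendritic cell chemokine, and Cd4 (1.17). Il17rd spots (0.965% of 15654 genes, 0.192% rose, 0.773% fell) were led by Myh11 (0.61), Ccn5 (0.48) and Tagln (0.46), genes of smooth muscle, and Cd3e did not pass there (0.01, edgeR adjusted p = 0.996). In Il17rc spots 0.460% of 15002 genes passed (0.160% rose), with Gdf15 (0.76) and Col8a1 (0.71) foremost. Il17ra, Traf3ip2 and Il17rb were not compared in this way, since they were found in too many or too few spots.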

How the data were processed

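Per the labels, 4 fixed heart sections were profiled with Visium, 2 per group, and groups came from the labels' treatment field. The deposited matrices hold raw UMI counts by gene and tissue spot, from Space Ranger 2.1.0 per the file headers. The submitters' processing notes name mm10 and Seurat 5.1.0 without a role; no source used here names the probes. A second table by the authors gives Moran's I as a score for each gene, with its adjusted p-value (method not stated). UMIs come from probes and are not scaled by gene length, so levels were compared between sections and spots rather than between genes.

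Counts were summed per section, or per section and spot class, filtered with filterByExpr and TMM-scaled. Tests used edgeR 4.0.16 (glmQLFit and glmQLFTest) under R 4.3.3, or limma 3.58.1 as an alternative, and p-values were adjusted over all genes by the Benjamini-Hochberg method, with 0.05 as threshold. Spot class fits had the section as a block. The fits were tested on simulated data. Spots were classed after thinning to 5000 UMIs, leaving out 105 and 37 antibody spots and 11 and 4 ICI-alone spots below that depth. The class threshold was the smallest panel count reached by no more than 10% of spots, each section having equal weight. Panel genes were left out of the test of their own class. CPM in tests is TMM-normalized, elsewhere by library size.

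All 9 members are named whatever their values. The rule covered comparisons of spots that hold Il17a, or another member found in 10 spots or more and at most 20% of spots per section. It names the 10 largest rises past the threshold, skipping predicted genes. Their mean over sections had to reach 10 CPM in the spots that hold the member, or in ring 1, with the same direction in 4 sections. For the interaction with treatment, both antibody log2 ratios had instead to exceed both ICI-alone ratios. From each list, up to 4 genes of smallest p are also named. The members and lists were chosen with earlier results of these data known. Same-batch sections deviated together weakly (correlation 0.179 over 18817 genes), and the labels share the batch number across groups. The numbers were therefore taken to pair sections in within-batch differences and in alternative fits with batch as a block. The main treatment fits held the group only, without pairing. DESeq2 1.42.0 was an alternative. The spot comparisons for 14 background genes were added after seeing the data. Sums and figures were made in Python 3.11.15 (pandas 2.3.3, numpy 2.4.6, matplotlib 3.10.9, scipy 1.17.1). Image scale factors were left aside. Results for 2 genes, 1 of them of the type 17 programme list, are not reported here.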

Additional observations from a re-analysis of the deposited data

Results flagged for a closer look

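The difference between Il17a spots and other spots differed between the antibody and ICI-alone groups, by the edgeR interaction test, for the 19 genes named by rule and given here. Other genes of the cell type and response lists passed as well and are not among these. All 19 were more positive with the antibody, a direction that the rule required of the 10 genes picked for the largest rise. Among all genes tested, 491 passed as more positive and 96 as more negative. Values are antibody minus ICI alone on the log2 scale. Il17ra was the only member among them, at 1.13. Igkc had 2.62, S100a8 2.34, Sprr1a 2.27, Cilp 2.26, Mcoln2 2.22, S100a9 2.14, Thbs4 2.01, Cxcr2 2.01, Mmp12 2.00 and Il1f9 1.97. From the gene lists, Mmp9 had 1.64, Ptx3 1.51, Il1b 1.25, Il6 1.04, Arid5a 0.96, Ikbke 0.91, Tgfb1 0.88 and Il1a 0.86. With 2 sections per group, single sections could not be tested as outliers.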

How the results depend on the processing

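With 4 sections, antibody ones shallower, calls rest on few samples, and members under about 1 CPM are limited by counting. In whole sections 1 member was called, against 2 in DESeq2, 2 with the batch as replicate block, 0 with a 10 CPM filter, 0 with limma on mean log values and 0 to 2 when each section was left out; the block changed no other call. For T cell-rich spots the 6 called became 3 at a 5% threshold, 2 after thinning to 2000 UMIs and 1 to 4 without single sections. For macrophage-rich spots the 1 called became 2 without thinning, with the class set within sections, by library size alone and with DESeq2 size factors, and 1 to 2 without single sections. For matrix-rich spots the 1 called became 0 at 5%, 3 at 20%, 0 without thinning, 2 without spots rich in another panel, 2 by library size alone and 0 to 2 without single sections. For the interaction with T cell-rich spots the 0 called became 1 without spots rich in another panel, 1 by library size alone and 0 to 2 without single sections; within T cell-rich spots it was 0 throughout those fits. For Il17a spots 4345 genes became 2889 with detection on thinned spots, and 3363 to 4306 without single sections; for ring 1, 4049 became 0 to 4609. For the interaction with Il17a spots, 587 became 320 with detection on thinned spots, 893 by library size alone, 1040 without a filter on low counts, and 32 to 2940 without single sections. Over single genes, 684 alternative values kept direction and side of the threshold, 63 lost and 20 gained a call, and 45 turned sign, none of them called. In whole sections Il17rc turned to -0.00198 with sections thinned to 1 total, and ranges without single sections crossed 0 for Il17a (-0.031 to 1.00), Il17f (-0.11 to 1.08), Il17rc (-0.31 to 0.44) and Il23a (-0.68 to 0.21). In macrophage-rich spots Il17a turned to 0.15 at 5%, 0.19 at 20%, 0.13 after thinning to 2000 UMIs and 0.17 within sections, Il17f to 0.10 and Il17rd to 0.051 after thinning to 2000 UMIs, and Il17rc to -0.42 at 5% and -0.23 without thinning; without single sections Il17rc had -0.093 to 0.95 and Il17rd -0.55 to 0.00666. In matrix-rich spots Il17a turned to 0.47 at 20%, 0.51 within sections and 0.069 by library size, Il17f to 0.20 within sections, Il17rc to -0.37 at 5%, and Il23a to 0.71 at 20%, 0.29 without spots rich in another panel, 0.32 within sections and 0.17 by library size. Without single sections there, Il17a had -0.82 to 0.24, Il17rc -0.20 to 1.87, Il17rd -0.63 to 0.041, Il23r -2.6e-05 to 1.34 and Il23a -0.48 to 0.71. For the T cell-rich interaction Il17f turned to -0.68 without spots rich in another panel, Il17rd to -0.16 at 20% and -0.35 within sections, Il23r to -0.97 at 5% and -0.0048 with DESeq2 size factors, and Il23a to -0.11 without thinning; without single sections Il17f had -1.11 to 1.13, Il17rd -0.11 to 0.21, Il23r -1.001 to 0.51 and Il23a -1.16 to 1.94. Within T cell-rich spots Traf3ip2 turned to 0.00639 at 5%, and Il17f had -0.43 to 2.02 without single sections. The causes were not tested.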
